A study of Mus musculus with 7 samples.

Results

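The complement system is a set of secreted and membrane proteins that tag particles for removal and call in phagocytes. Complement component and receptor genes were described here as a group of 9 named genes, C1qa, C1qb, C1qc, C3, Cfb, Cfp, C3ar1, C5ar1 and C5ar2, chosen by symbol from the 34305 rows of the table of counts. All 9 were found, and all 9 passed the filter on low counts. The data were poly(A) RNA sequencing libraries of HSPCs, haematopoietic stem and progenitor cells of the mouse, kept in culture. The group called MN1pQdel (3 libraries) was transduced with MN1 lacking its polyglutamine stretch, the MN1 group (3 libraries) with MN1, and the noTD group (1 library) was not transduced. MN1 is a transcriptional co-regulator and an oncogene of acute myeloid leukaemia. Per the labels, cells were transduced with a plasmid, sorted, and RNA was taken after 7 to 9 days of growth with the cytokines SCF (20 ng/mL), IL-6 (10 ng/mL) and IL-3. The strain, age and sex of the mice, the promoter of the construct, the marker used for sorting and the day of each library are not stated by the labels used here. The series text calls the transduced samples independent, and nothing says that they came from separate animals, so each p-value speaks only of the spread among these libraries, which may be technical.

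C1q is assembled from 3 kinds of chain, the products of C1qa, C1qb and C1qc, and starts the classical pathway when it binds antibody on a surface. C3 is the protein on which all pathways converge, factor B (Cfb) forms the alternative pathway enzyme that cuts C3, and properdin (Cfp) stabilises that enzyme. Cleavage of C3 and C5 releases the peptides C3a and C5a, which act through the receptors encoded by C3ar1, C5ar1 and C5ar2. In blood-forming tissue, macrophages are known as a main source of C1q, and neutrophils and monocytes store or release properdin and carry the anaphylatoxin receptors.

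Totals ran from 43025153 to 67728658 counts in MN1pQdel, from 38210660 to 43194988 in MN1, and 38642911 in noTD. Levels are given as CPM, counts relative to the library's total, scaled by the trimmed mean of M-values (TMM). Mn1 stood at 686, 403 and 730 CPM in MN1pQdel and at 314, 287 and 286 CPM in MN1, against 34.0 CPM in noTD. The groups thus also differed in Mn1 counts (log2 fold change 1.05, SE 0.23, edgeR Benjamini-Hochberg adjusted p = 0.0282). That call was kept in 1 of 6 fits with a single library left out, at log2 fold changes of 0.89 to 1.25. The difference in construct and that in Mn1 level cannot be told apart. The progenitor genes Kit and Cd34 were present in all 7 libraries, at 236 to 878 CPM and 160 to 645 CPM. Cd34 was lower in MN1pQdel than in MN1 (log2 fold change -1.36, SE 0.21), and Kit did not pass (0.78, SE 0.45). MN1pQdel replicate 2 stood apart from its group: its eosinophil markers summed to 235 CPM, against 3380 and 3658 CPM in MN1pQdel replicates 1 and 3. Values without it are therefore given beside the counts of complement genes called and for some of the single genes. Of all tested genes, 11.1% were called higher in MN1pQdel than in MN1 and 6.08% lower (adjusted p under 0.05 in edgeR). Neutrophil markers were higher in MN1pQdel in 15 of 15 tested genes. Their sums were 31060 to 41591 CPM in MN1pQdel, 5045 to 9123 CPM in MN1 and 43428 CPM in noTD. Monocyte and macrophage markers were higher in 8 of 24 tested genes and lower in 1. Their sums were 4493 to 6924 CPM in MN1pQdel, 2297 to 2368 CPM in MN1 and 9431 CPM in noTD. A single gene, Lyz2, made up much of these sums. It stood at 4710, 4262 and 2747 CPM in MN1pQdel, at 1121, 1104 and 1096 CPM in MN1 and at 6920 CPM in noTD. Eosinophil markers were higher in 7 of 9 tested genes, mast cell and basophil markers in 9 of 14, erythroid and megakaryocyte markers in 1 of 10 and fibroblast markers in 1 of 5, with 1 fibroblast marker lower. Stem and progenitor markers were lower in 5 of 10 and dendritic cell markers in 1 of 8. Of 4 lymphocyte and 3 endothelial and hepatocyte markers tested, 0 passed in edgeR or DESeq2, and 1 of each list had an unadjusted p under 0.05.

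Of the 9 complement genes, 7 were higher in MN1pQdel than in MN1, 0 were lower and 2 did not pass. The threshold was 0.05 on p adjusted by Benjamini-Hochberg over 14808 genes, in the quasi-likelihood test of edgeR without pairing by replicate number. The genes that rose were C1qa, C1qb, C1qc, C3, Cfp, C5ar1 and C5ar2, and those that did not pass were C3ar1 and Cfb. Rose and fell mean higher and lower in MN1pQdel than in MN1, here and below. C1qa, at 4, 15 and 10 counts in MN1, passed the filter on low counts only through MN1pQdel, where it is high. Its call and its lack of overlap are therefore no separate support for the counts of 7 given here. Among all tested genes 11.1% were called higher, 6.08% lower and 17.2% in either direction. The median log2 fold change was 2.03 over the 9 genes and 0.01 over all tested genes. For the same 7 genes every MN1pQdel library lay above every MN1 library, which held for 21.7% of all tested genes, and for 43.6% when either direction is counted. Without MN1pQdel replicate 2, 8 of the 9 were higher and 1 lower, where 21.3% of 15252 tested genes were called higher and 41.9% in either direction. Leaving out MN1pQdel replicate 1 left 3 calls (3.36% of all genes called), and leaving out MN1pQdel replicate 3 left 5 (6.19%). Leaving out MN1 replicate 1 left 2 (4.14%), MN1 replicate 2 left 2 (4.47%) and MN1 replicate 3 left 5 (3.34%). With the replicate number as a block 8 passed, where 30.7% of all genes did, and with DESeq2 8, where 30.0% did. Without both libraries numbered 2, 8 were higher and 1 lower, where 17.4% of all genes were higher and 34.8% passed. Scaling by library totals alone left 7 calls (20.2% of all genes), and a floor of 1 CPM in 3 libraries left 6 (19.2%). C3 and C5ar1 kept the call in all 6 fits with a single library left out and in all 9 other settings tried. In these bulk libraries, fewer cells of a type and less RNA per cell cannot be told apart. The part of neutrophils and macrophages in these differences was not tested.

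**Figure D1:**
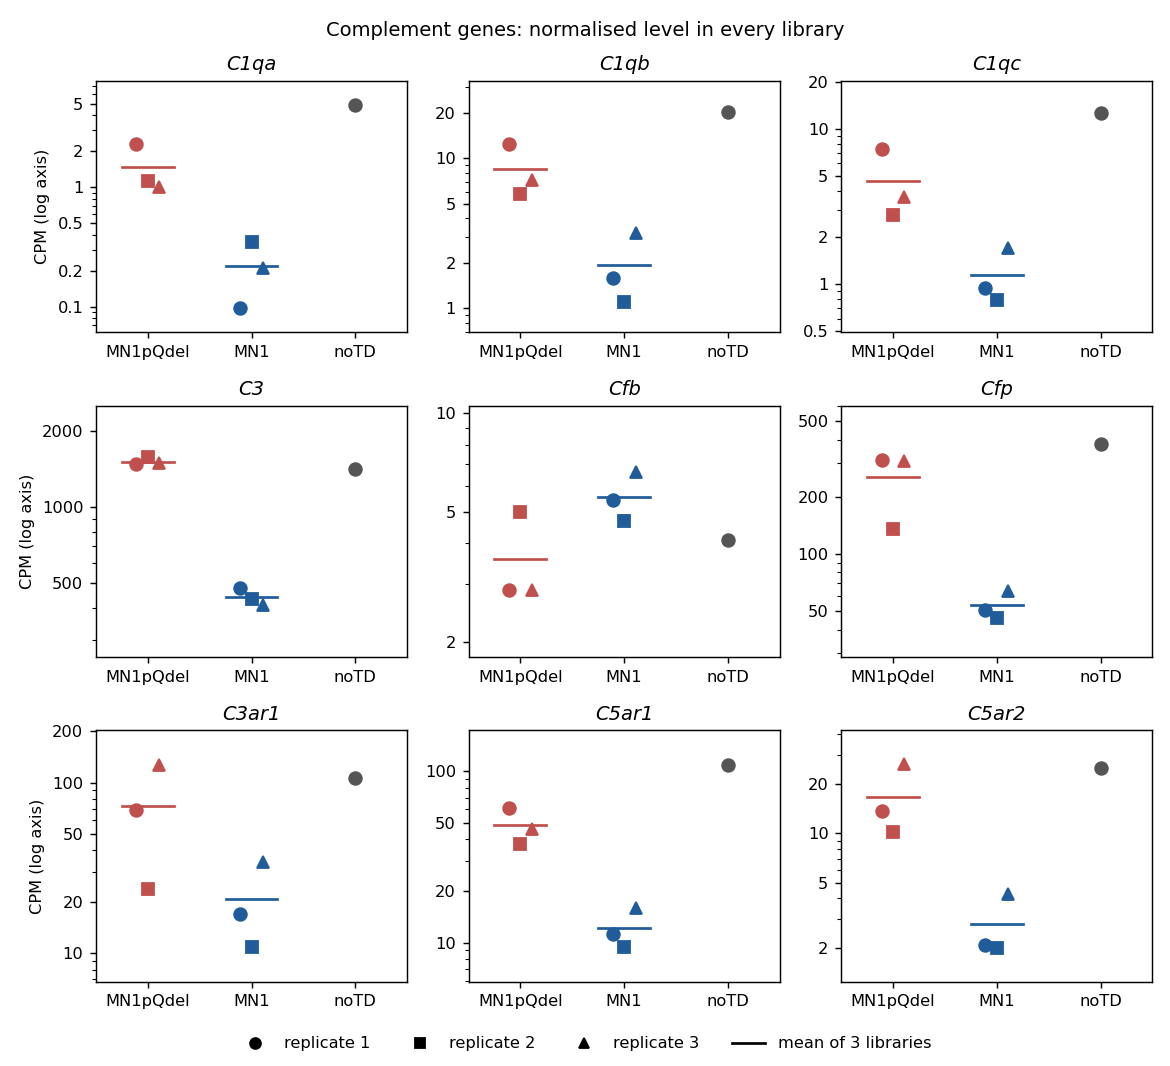
Level of each of the 9 complement genes in every library, in TMM-scaled CPM on a log axis with a range of its own in each panel. Points are libraries, their shape the replicate number, and lines the means of 3 libraries. MN1pQdel lies above MN1 without overlap in every panel but those of Cfb and C3ar1, and the single noTD library is the highest for the C1q genes, Cfp and C5ar1.

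The 3 C1q genes lie side by side on chromosome 4, and they and the other 6 genes are protein coding and on the minus strand. RefSeq start sites on GRCm38.p6 were available for 7 of the 9 genes, with a pair of start sites for C5ar2. The 250 bases upstream of the start site are shown for C1qb and C1qc, whose levels moved together, for C3, the most abundant of the 9, and for C5ar2 at its outer start site, as one of the 2 genes with the largest change. Capitals mark the letters GAGGAA, the core of sites bound by ETS factors such as PU.1, and TTGCNNAA, a form of the C/EBP site, on either strand.
C1qb (chr4:136886201-136886450, minus strand): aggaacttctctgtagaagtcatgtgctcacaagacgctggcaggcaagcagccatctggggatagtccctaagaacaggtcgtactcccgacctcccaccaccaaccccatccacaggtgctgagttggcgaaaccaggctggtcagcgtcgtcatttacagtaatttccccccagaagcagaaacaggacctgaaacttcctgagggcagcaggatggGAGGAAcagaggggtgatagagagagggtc
C1qc (chr4:136892915-136893164, minus strand): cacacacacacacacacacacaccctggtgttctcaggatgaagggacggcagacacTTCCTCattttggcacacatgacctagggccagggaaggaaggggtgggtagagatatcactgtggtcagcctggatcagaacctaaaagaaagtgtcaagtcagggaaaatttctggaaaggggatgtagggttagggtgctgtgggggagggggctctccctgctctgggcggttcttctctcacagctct
C3 (chr17:57228137-57228386, minus strand): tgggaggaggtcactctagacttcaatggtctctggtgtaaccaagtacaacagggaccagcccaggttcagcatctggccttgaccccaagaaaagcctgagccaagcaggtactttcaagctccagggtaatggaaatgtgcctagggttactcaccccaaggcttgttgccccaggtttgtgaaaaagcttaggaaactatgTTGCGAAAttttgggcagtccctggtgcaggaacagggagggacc
C5ar2 (chr7:16244155-16244404, minus strand): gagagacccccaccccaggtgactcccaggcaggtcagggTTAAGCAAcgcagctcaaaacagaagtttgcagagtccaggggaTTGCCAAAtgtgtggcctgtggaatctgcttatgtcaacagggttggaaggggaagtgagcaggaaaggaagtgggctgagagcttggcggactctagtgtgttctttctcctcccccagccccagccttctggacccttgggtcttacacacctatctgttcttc

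GAGGAA ended 25 bases before the C1qb start and stood on the opposite strand in C1qc. It was found in 3 of the 8 upstream windows, the third being the inner start site of C5ar2, and in 22.7% of the windows of all tested genes. TTGCNNAA was found in 2 of 8, in C3 from 45 to 38 bases before the start and at 2 places in the outer window of C5ar2, and in 7.95% of tested windows. The interferon-stimulated response element core and TTCNNNGAA, a STAT site, were found in 0 of 8, and in 2.81% and 6.20% of tested windows. TGANTCA, the AP-1 site, was found in 1 (C3ar1) and in 4.91% of tested windows, and TGACAG, a MEIS site, in 3 (C3ar1, C5ar1 and the inner window of C5ar2) and in 14.3%. Both strands were searched, and these are matches of letters only. Parts of the C1qc, C3ar1 and C5ar1 windows, and the inner C5ar2 window, lie inside the gene spans annotated by GENCODE. The bases after the C1qb start were not found in its GENCODE transcript. Distances therefore hold for the RefSeq start sites only.

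The C1q genes were low in all groups and lowest in MN1. C1qa (chromosome 4, 136895917 to 136898803 on GRCm38), the A chain gene, had 143, 55 and 40 counts in MN1pQdel, 4, 15 and 10 counts in MN1 and 175 counts in noTD. As CPM these were 2.31, 1.12 and 0.997 in MN1pQdel, 0.0977, 0.347 and 0.211 in MN1 and 4.86 in noTD. The groups did not overlap, and the noTD library was above all 6 transduced libraries. C1qb (136880129 to 136886187), the B chain gene, stood at 12.5, 5.82 and 7.23 CPM in MN1pQdel, at 1.59, 1.11 and 3.16 CPM in MN1 and at 20.5 CPM in noTD. C1qc (136889804 to 136893065), the C chain gene, stood at 7.45, 2.80 and 3.66 CPM in MN1pQdel, at 0.952, 0.786 and 1.71 CPM in MN1 and at 12.7 CPM in noTD. MN1pQdel replicate 1 was the highest MN1pQdel library for each chain, and MN1 replicate 3 the highest MN1 library for C1qb and C1qc but not for C1qa.

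The log2 fold change of MN1pQdel over MN1 was 2.76 (SE 0.56) for C1qa, 2.14 (SE 0.48) for C1qb and 2.03 (SE 0.49) for C1qc, with edgeR Benjamini-Hochberg adjusted p = 0.0233, 0.0308 and 0.0365. All 3 kept the call without MN1pQdel replicate 2, at log2 fold changes of 2.91, 2.33 and 2.27. C1qa lost it without MN1pQdel replicate 1 (edgeR adjusted p = 0.0794), MN1 replicate 1 (0.0762), MN1 replicate 2 (0.0539) or MN1 replicate 3 (0.0920). C1qb lost it without MN1pQdel replicate 1 (0.111), MN1pQdel replicate 3 (0.0656), MN1 replicate 1 (0.111) or MN1 replicate 2 (0.0982). C1qc lost it in 5 of 6 such fits, without MN1pQdel replicate 1 (0.117) or 3 (0.0705) and without MN1 replicate 1 (0.122), 2 (0.125) or 3 (0.0720). The fold changes stayed positive throughout, between 1.48 and 3.24. Beside C1q, the 8 of 24 monocyte and macrophage markers that rose were Slc40a1, Maf, Adgre1, Lyz2, Ly6c2, Spi1, Trem2 and Csf1r. Log2 fold changes ran from 3.12 for Slc40a1 to 0.87 for Csf1r, and Cd163 was the 1 that was lower in MN1pQdel than in MN1. Adgre1, the gene of F4/80, stood at 217, 75.8 and 207 CPM in MN1pQdel, at 45.6, 31.4 and 56.2 CPM in MN1 and at 211 CPM in noTD, and rose by 1.92 on the log2 scale (SE 0.42). Cd163, a haemoglobin scavenger receptor, stood at 2.60, 2.51 and 3.71 CPM in MN1pQdel, at 6.30, 7.42 and 6.13 CPM in MN1 and at 2.86 CPM in noTD. It was lower in MN1pQdel, by -1.16 on the log2 scale (SE 0.25). Timd4, a marker of resident macrophages, was not tested, at 0.0748 to 0.0817 CPM in MN1pQdel, 0 to 0.0211 CPM in MN1 and 0.0556 CPM in noTD.

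The chains were compared with each other per kilobase of exon. C1qb had the highest level, at 7.84 ± 3.26 CPM per kilobase in MN1pQdel and 1.79 ± 0.985 in MN1 (SD, n = 3 each), with 18.8 in noTD. C1qc had 2.40 ± 1.28 CPM per kilobase in MN1pQdel and 0.595 ± 0.254 in MN1 (SD, n = 3 each), with 6.56 in noTD, and C1qa had 1.42 ± 0.698, 0.210 ± 0.120 and 4.67. The ratio of C1qc to C1qb per length ran from 0.271 to 0.335 in MN1pQdel and from 0.304 to 0.399 in MN1 and was 0.348 in noTD, so it overlapped between the transduced groups. It depends on the length used for C1qc: with the longest transcript it ran from 0.435 to 0.537 in MN1pQdel and from 0.488 to 0.641 in MN1. C1qa made up 10.4%, 11.5% and 8.39% of C1q counts in MN1pQdel (95% exact intervals from 6.06% to 14.7% in all) and 12.8% in noTD (11.1% to 14.7%). In MN1 it made up 3.70% (1.02% to 9.21%), 15.5% (8.92% to 24.2%) and 4.15% (2.01% to 7.50%), so the MN1 libraries lay on both sides of the others. These intervals cover counting error only.

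**Figure D2:**
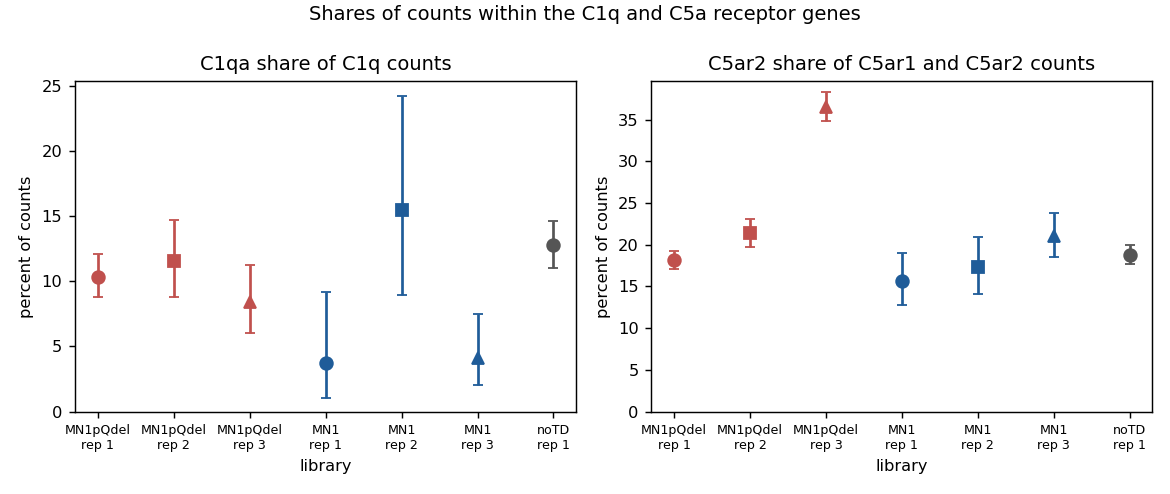
Percent of C1q counts that belong to C1qa (left) and percent of C5ar1 and C5ar2 counts that belong to C5ar2 (right) in each library. Bars are 95% exact binomial intervals, which cover counting error only, shapes give the replicate number, and the C5ar2 share of MN1pQdel replicate 3, 36.6%, lies above all other libraries.

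C3 (chromosome 17, 57203970 to 57228136) was the most abundant of the 9 genes per length. It stood at 1477, 1571 and 1489 CPM in MN1pQdel, at 478, 435 and 410 CPM in MN1 and at 1407 CPM in noTD. The 3 MN1pQdel libraries lay within 1.06-fold of each other and just above noTD, and the MN1 libraries formed a separate lower group. Per kilobase, C3 averaged 294 ± 9.89 CPM in MN1pQdel and 85.8 ± 6.71 CPM in MN1 (SD, n = 3 each). The log2 fold change was 1.79 (SE 0.11, edgeR Benjamini-Hochberg adjusted p = 0.00357), and no tested gene had a smaller adjusted p. It ran from 1.73 to 1.84 when single libraries were left out, with edgeR adjusted p up to 0.0247. MN1pQdel replicate 2, low for 6 of the 9 genes, was the highest MN1pQdel library for C3.

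Cfp (chromosome X, 20925454 to 20931555), the properdin gene, stood at 315, 136 and 310 CPM in MN1pQdel, at 51.0, 46.0 and 64.2 CPM in MN1 and at 377 CPM in noTD. MN1pQdel replicate 2 was the lowest of its group but lay above every MN1 library, so the groups did not overlap. MN1pQdel over MN1 differed by 2.25 on the log2 scale (SE 0.34, edgeR Benjamini-Hochberg adjusted p = 0.0104), and by 2.53 (0.000572) without MN1pQdel replicate 2. Without MN1 replicate 1 or MN1 replicate 2 the edgeR adjusted p was 0.0504 and 0.0511.

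Cfb (chromosome 17, 34856374 to 34862518), the factor B gene, had the opposite sign. It stood at 2.88, 4.98 and 2.89 CPM in MN1pQdel, at 5.42, 4.67 and 6.59 CPM in MN1 and at 4.08 CPM in noTD. The groups overlapped through MN1pQdel replicate 2, which lay above MN1 replicate 2. The log2 fold change of -0.62 (SE 0.30) did not pass (edgeR Benjamini-Hochberg adjusted p = 0.174). Without MN1pQdel replicate 2 it was -0.95 (edgeR adjusted p = 0.0248), and without both libraries numbered 2 it was -1.08 (0.0273). Interferon-stimulated genes, among which Cfb is often counted in other cells, were lower in MN1pQdel in 12 of 20 tested genes and higher in 0. Of all tested genes 6.08% were lower and 11.1% higher. Summed, the interferon-stimulated genes stood at 428, 451 and 410 CPM in MN1pQdel, at 973, 612 and 1067 CPM in MN1 and at 972 CPM in noTD. The noTD sum thus lay inside the MN1 range, whereas Cfb in noTD lay below every MN1 library. MN1pQdel replicate 2, the highest MN1pQdel library for Cfb, had a sum of 451 CPM, below every MN1 library. The part of interferon-stimulated genes in the Cfb values was not tested. Cfb lies next to C2 and overlaps Gm20547, a gene model on the same strand from 34856412 to 34882042, so reads of the 2 could be split.

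The receptor genes showed 2 kinds of spread. C5ar1 (chromosome 7, 16246743 to 16259540), the main C5a receptor gene, stood at 61.2, 37.3 and 45.9 CPM in MN1pQdel, at 11.2, 9.48 and 15.9 CPM in MN1 and at 108 CPM in noTD. Libraries of one group lay close together, with a highest over lowest of 1.64 in MN1pQdel and 1.68 in MN1, and the groups did not overlap. C5ar1 rose by 2.00 on the log2 scale (SE 0.27, edgeR Benjamini-Hochberg adjusted p = 0.00816), between 1.77 and 2.22 with single libraries left out, and passed in all 6 of those fits.

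C5ar2 (chromosome 7, 16234585 to 16244154), the gene of a second C5a receptor that does not couple to G proteins, lies beside C5ar1. It stood at 13.6, 10.2 and 26.5 CPM in MN1pQdel, at 2.08, 1.99 and 4.25 CPM in MN1 and at 24.9 CPM in noTD. Replicate 3 was the highest library in both transduced groups, and the groups did not overlap. C5ar2 rose by 2.60 on the log2 scale (SE 0.48, edgeR Benjamini-Hochberg adjusted p = 0.0181), and 2.84 (0.00418) without MN1pQdel replicate 2. It did not pass without MN1pQdel replicate 1 (0.0589), MN1 replicate 1 (0.0735) or MN1 replicate 2 (0.0746). C5ar2 made up 18.1%, 21.4% and 36.6% of the counts of both genes in MN1pQdel, 15.7%, 17.3% and 21.1% in MN1 and 18.8% in noTD. MN1pQdel replicate 3 had the highest share (95% exact interval 34.8% to 38.3%). That interval covers counting error only, not the spread between replicates. All 7 C5ar2 values were not whole numbers, nor were 6 values of C3ar1 and 3 of Cfb. Counts of these genes could thus be split with other transcripts.

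C3ar1 (chromosome 6, 122847138 to 122856161), the C3a receptor gene, varied most between libraries of one group. It stood at 69.3, 23.7 and 127 CPM in MN1pQdel, at 17.0, 10.9 and 34.2 CPM in MN1 and at 106 CPM in noTD. In both transduced groups replicate 2 was lowest and replicate 3 highest, and MN1pQdel replicate 2 fell below MN1 replicate 3. The log2 fold change of 1.84 (SE 0.66) did not pass (edgeR Benjamini-Hochberg adjusted p = 0.0923). With the replicate number as a block, which compares libraries of the same number, it was 1.70 (SE 0.21) and passed (edgeR adjusted p = 0.0126). It also passed without MN1pQdel replicate 2 (0.0133), without both libraries numbered 2 (0.0292) and in DESeq2 (Benjamini-Hochberg adjusted p = 0.0126).

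Per length, the order in MN1pQdel was C3, Cfp at 146 ± 58.6, C5ar1 at 18.7 ± 4.71, C3ar1 at a mean of 17.0 with libraries 5.34-fold apart, C1qb, C5ar2 at 4.70 ± 2.41, C1qc, C1qa and Cfb at 1.27 ± 0.429 CPM per kilobase (SD, n = 3). C5ar1 and C3ar1 differed by less than their spread, as did C1qa and Cfb. In MN1, Cfb stood at 1.97 ± 0.343 CPM per kilobase (SD, n = 3), above C5ar2 at 0.779 ± 0.360 and both C1qa and C1qc, and close to C1qb.

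**Figure D3:**
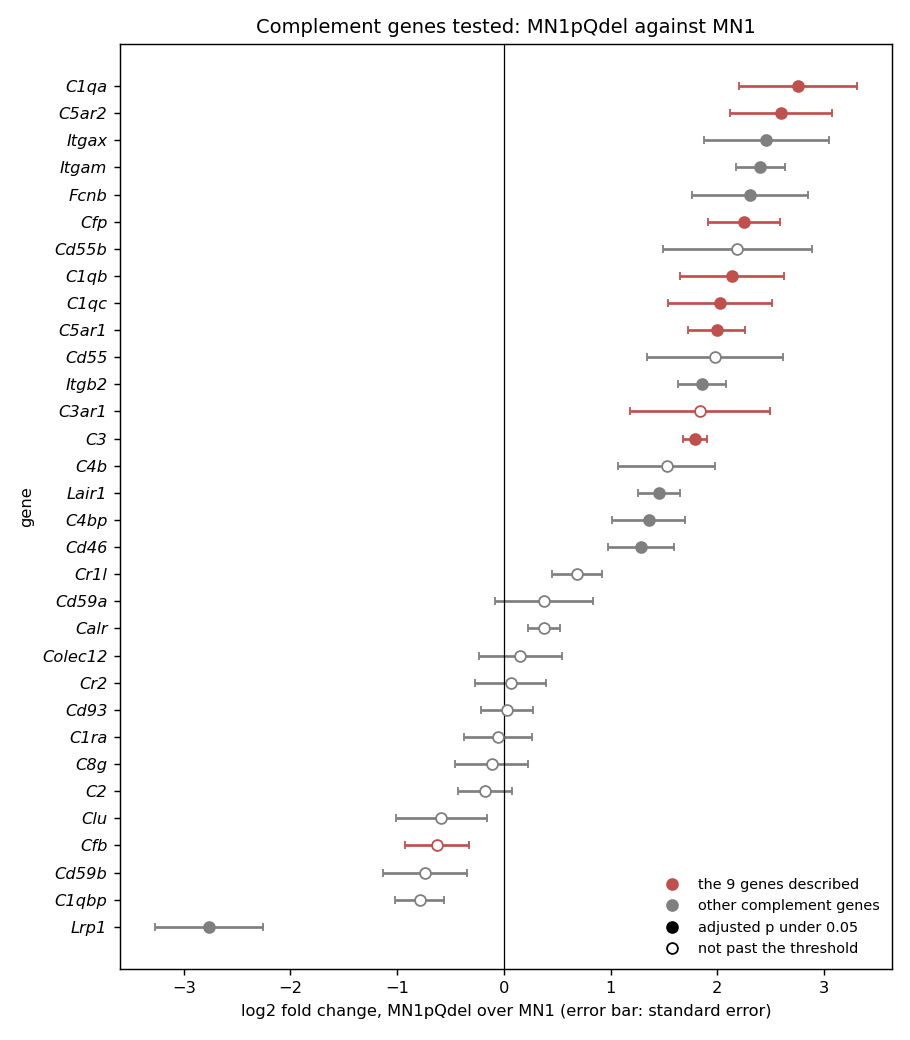
Log2 fold change of MN1pQdel over MN1 for the 9 complement genes (red) and the 23 other complement genes tested (grey), with the standard error as bar. Filled points passed an adjusted p of 0.05, and 14 of 15 filled points lie to the right of 0, the exception being Lrp1.

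Most of the rest of the pathway fell under the filter on low counts or did not pass. Of 49 other complement genes in the table, 23 were tested, and 7 were higher in MN1pQdel, 1 was lower and 15 did not pass, where 11.1% of all tested genes were higher and 6.08% lower, with a median log2 fold change of 0.38 against 0.01 over all tested genes. Without MN1pQdel replicate 2, 13 were higher and 4 lower, where 21.3% of all genes were higher and 41.9% passed in either direction. Without MN1pQdel replicate 1 there were 3 calls (3.36% of all genes) and without MN1pQdel replicate 3 there were 5 (6.19%). Without MN1 replicate 1 there were 4 (4.14%), without MN1 replicate 2 there were 3 (4.47%) and without MN1 replicate 3 there were 3 (3.34%).

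Receptors for C3 fragments made up the most abundant of the genes that rose. Itgam, the CD11b chain of complement receptor 3, stood at 1510, 912 and 1336 CPM in MN1pQdel, at 285, 222 and 209 CPM in MN1 and at 1350 CPM in noTD. Itgb2, the CD18 chain shared by these receptors, stood at 1161, 686 and 958 CPM in MN1pQdel, at 292, 220 and 269 CPM in MN1 and at 1094 CPM in noTD. Their log2 fold changes were 2.40 (SE 0.23) and 1.86 (SE 0.22), with edgeR Benjamini-Hochberg adjusted p = 0.0052 and 0.00579. Itgax, the CD11c chain of complement receptor 4, rose by 2.46 (SE 0.59) on the log2 scale, and Lair1, an inhibitory receptor that binds C1q, by 1.45 (SE 0.20). Both integrin chain genes are also expressed widely in neutrophils and monocytes. Lrp1, a scavenger receptor reported to take part in C1q uptake, was lower in MN1pQdel than in MN1. It stood at 111, 176 and 46.1 CPM in MN1pQdel, at 493, 802 and 982 CPM in MN1 and at 117 CPM in noTD, so MN1 was the group away from noTD. Its log2 fold change was -2.76 (SE 0.50, edgeR Benjamini-Hochberg adjusted p = 0.0179).

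Of 5 other tested genes listed with the early steps of the classical and lectin pathways, 1 rose in edgeR and 2, Fcnb and C4b, in DESeq2. The 5 were C1ra, C2, C4b, Fcnb and Colec12. Of all tested genes 11.1% rose in edgeR. In DESeq2 2445 of 14516 genes were higher, and 30.0% passed in either direction. Fcnb, a ficolin of the lectin pathway stored in granules of myeloid precursors, stood at 44.6, 89.0 and 30.2 CPM in MN1pQdel, 11.8, 16.4 and 5.01 CPM in MN1 and 49.9 CPM in noTD (log2 fold change 2.31, SE 0.54, edgeR Benjamini-Hochberg adjusted p = 0.0344). The C1q-associated protease gene C1ra stayed at 1.35 to 3.64 CPM in all 7 libraries and did not pass. Mbl1 and Mbl2, the mannose-binding lectins, were at 0 counts in all 7 libraries, and Masp1, Fcna and C1rb had 2, 4 and 3 counts in all. C4b, a substrate of the C1 complex, missed the threshold in edgeR at a log2 fold change of 1.53 (edgeR Benjamini-Hochberg adjusted p = 0.0602). Of the terminal components only C8g was tested, and Hc, the C5 gene, had 30 counts over all libraries.

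Among the regulators, C4bp (1.36, SE 0.34) and Cd46 (1.29, SE 0.31) rose on the log2 scale, with edgeR Benjamini-Hochberg adjusted p = 0.0413 and 0.0356, both at under 4 CPM. They were 2 of the 9 tested regulators, where 11.1% of all tested genes rose in edgeR. In DESeq2 6 of the 9 passed, where 30.0% of all genes did in either direction. These 6 were C4bp, Cd46, Cd55, Cd55b, Cr1l and C1qbp. The membrane regulator Cd55 missed the threshold in edgeR, with a difference of 1.98 on the log2 scale (SE 0.64, edgeR Benjamini-Hochberg adjusted p = 0.0735). It stood at 389, 96.9 and 441 CPM in MN1pQdel, at 128, 39.8 and 70.1 CPM in MN1 and at 401 CPM in noTD, so MN1pQdel replicate 2 fell below MN1 replicate 1. Cd55 and Cd55b are close copies and can share reads. C1qbp, whose product was first isolated by its binding to C1q but acts mainly in mitochondria, missed the threshold in edgeR at a log2 fold change of -0.79 (edgeR Benjamini-Hochberg adjusted p = 0.0554).

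Against the single untransduced library, no test was run, and differences are given in log2 CPM with a prior count of 2. MN1 lay at least 2-fold under noTD in 8 of 9 complement genes, where 17.0% of 16216 genes did, and MN1pQdel in 4 of 9, where 4.29% of genes did. The 4 were C1qa, C1qb, C1qc and C5ar1. The median difference over the 9 genes was -0.84 for MN1pQdel and -3.17 for MN1, both sharing the noTD library, against 0.01 and -0.00 over all genes. C1qa lay furthest under noTD, by -1.79 in MN1pQdel and -4.34 in MN1. C3 differed by 0.10 in MN1pQdel and -1.68 in MN1, and Cfp by -0.67 in MN1pQdel and -2.83 in MN1. Cfb differed by -0.24 in MN1pQdel and 0.43 in MN1, both under 2-fold. All 3 libraries lay under noTD for 5 of 9 genes in MN1pQdel (20.1% of genes) and for 8 of 9 in MN1 (40.2%). For 5 genes, C1qa, C1qb, C1qc, Cfp and C5ar1, all MN1pQdel libraries lay between all MN1 libraries and noTD, an order that 6.59% of genes showed. With 1 untransduced library, its distance from other untransduced cultures is not known.

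**Figure D4:**
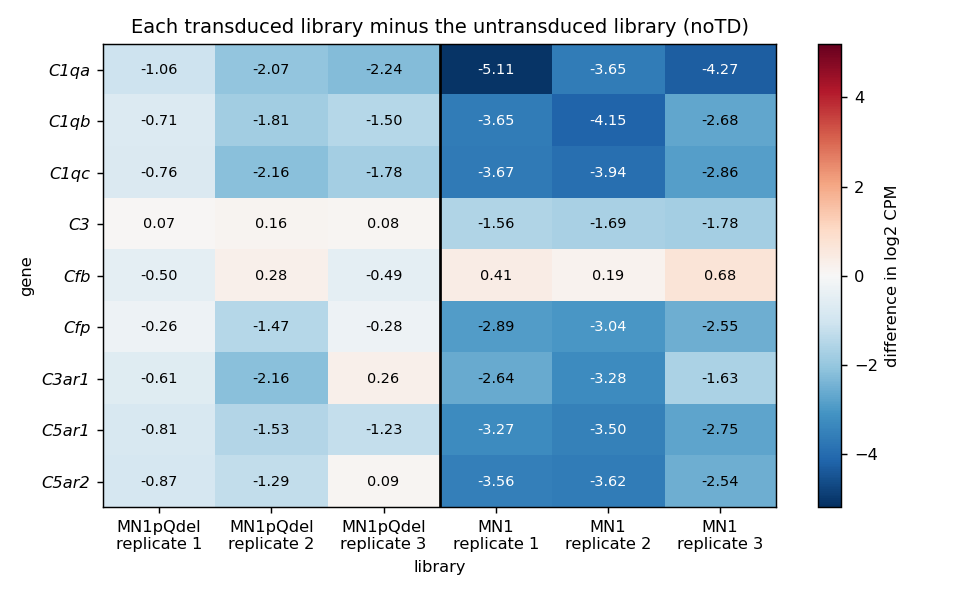
Difference in log2 CPM between each transduced library and the noTD library for the 9 complement genes, blue where the transduced library is lower. Columns are libraries, with MN1pQdel left and MN1 right, and every MN1 value but those of Cfb is -1.56 or lower, while C3 in MN1pQdel lies between 0.07 and 0.16.

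The genes with the most similar pattern over the 7 libraries were looked up among 9864 genes averaging 5 CPM or more, as a description, since the libraries share groups. For the mean of the C1q genes these were Tlr2 (Pearson r = 0.991), Abcc3 (0.990), Cd300c2 (0.986), Arhgap24 (0.986) and Fbxl5 (0.985). For C5ar1 they were Fbxl5 (0.994), Tlr2 (0.994), Mpeg1 (0.993), Cd300c2 (0.991) and Zdhhc7 (0.990), so 3 names were shared between both patterns. For C3 they were Ffar2 (0.998), Mpp1 (0.995), Rab31 (0.995), Cebpe (0.995) and Ceacam1 (0.995), with no name shared with the others. Cebpe, a transcription factor of late granulocyte maturation, stood at 120, 141 and 133 CPM in MN1pQdel, at 37.5, 30.0 and 24.4 CPM in MN1 and at 127 CPM in noTD. Tlr2, a receptor for bacterial lipoproteins, stood at 116, 85.0 and 95.5 CPM in MN1pQdel, at 34.3, 36.8 and 42.3 CPM in MN1 and at 187 CPM in noTD. Cebpe in noTD lay inside the MN1pQdel range and C3 in noTD just below it, whereas Tlr2, like the C1q genes and C5ar1, was highest in noTD.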

How the data were processed

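Estimated counts for each gene symbol, with no normalisation, are what the authors deposited, in 1 table. The submitters' processing notes name kallisto, DESeq2 and GRCm38 without their roles or versions, and no source used here names a transcript index. Of its values 32.5% were not whole (tolerance 1e-06), and 26 rows with calendar dates as symbols (0.172% of counts) stayed in the tests unnamed. Counts were rounded, filtered with filterByExpr and scaled by TMM. MN1pQdel was tested over MN1 with edgeR 4.0.16 (R 4.3.3, quasi-likelihood, group only, Benjamini-Hochberg over all genes, threshold 0.05). The pipeline was run on simulated counts without a replicate effect or an outlying library, so that run does not cover these features of the data. CPM per kilobase uses the exon union of GENCODE M21 (GRCm38), matched by symbol; upstream sequences are RefSeq's on GRCm38.p6. The alternatives were a replicate block, other scalings, filters and DESeq2 1.42.0, all libraries in the fit, counts not rounded, and libraries left out.

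Same-number libraries of the 2 groups deviated together, with correlations across genes of 0.367, 0.258 and 0.320, against -0.282 to -0.0599 for other pairs. These are deviations from the mean of each group's 3 libraries, which by itself pulls other pairs below 0 when same-number pairs are above it. The negative values are thus no separate evidence, and with 3 libraries per group such a match can also arise by chance. Pairing by number was therefore an assumption taken from the data, not from a label. Only the fit with the replicate block uses it. The main fit and the fits with libraries left out ignore it. With the block the SE fell from 0.48 to 0.17 for C5ar2 and from 0.66 to 0.21 for C3ar1. It rose from 0.56 to 0.62 for C1qa and from 0.30 to 0.31 for Cfb. Replicates differed by a chi-square per gene of 40.3 to 323, far above sampling noise. Without TMM the median of all genes' log2 fold changes moved by -0.20, and fold changes are relative to TMM. The 9 genes, the lists and the tests were chosen with earlier results of these data known. Named besides the 9 were the other complement genes that passed, or the most abundant of a list, and by the same rule the 5 genes most like each of 3 patterns; further genes named were chosen after their values were seen. Of 226 list entries 2 matched no symbol and were not analysed here. The counting is not stated to use strand, so overlapping genes cannot be told apart. Intervals are exact (95%).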

Additional observations from a re-analysis of the deposited data

How the results depend on the processing

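No fold change of the 9 complement genes changed sign under any of the 15 alternatives run, and 110 of 134 values of single genes kept their side of the threshold. The count of the 9 genes called, 7, was 8 with the replicate block (only C3ar1 changed), 8 with DESeq2, 6 with at least 1 CPM in 3 libraries, where C1qa was not tested, 9 without the replicate 2 pair, and 2 to 9 with single libraries left out. Over all genes 2544 were called, against 4545 with the replicate block, 4351 with DESeq2, 5247 without the replicate 2 pair and 506 to 6394 with single libraries left out. Library totals alone gave 38.2% of calls higher in MN1pQdel, against 64.6% with TMM, and the same 7 of the 9 genes. Of the other complement genes 8 were called, against 10 with the replicate block, 13 with DESeq2, 16 without the replicate 2 pair and 3 to 17 with single libraries left out. The cause of these differences was not tested. Against noTD, 35 of 36 recomputed differences moved by less than the spread between replicates; C3 in MN1 moved to -1.46 with library totals alone. The C1qc to C1qb ratio averaged 0.477 in MN1pQdel and 0.557 in MN1 with the longest transcript. Depth limits C1qa most, with 4 to 15 counts in MN1.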

Other observations

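Genes that share the globular domain of C1q but lie outside complement were listed as well. Of 18 such genes 4 were tested and 0 passed in edgeR, at a Benjamini-Hochberg adjusted p of 0.05, where 17.2% of all tested genes did. Only 1, Cbln3, had an unadjusted p under 0.05 and passed in DESeq2, where 30.0% of all genes did. The most abundant was C1qtnf6, at 46.5, 30.1 and 27.5 CPM in MN1pQdel, 41.5, 27.5 and 24.1 CPM in MN1 and 45.6 CPM in noTD, with a log2 fold change of 0.17 (SE 0.28).

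The nearest tested protein-coding genes on each side of the 6 loci, chosen by position, were read in the same fit. Of 12 neighbours 1 was higher in MN1pQdel and 1 lower, and 10 did not pass. With 17.2% of all tested genes called, this count is close to the background, and the values of both are given as a description. The higher one was Syn1 beside Cfp (log2 fold change 1.67, SE 0.45, edgeR Benjamini-Hochberg adjusted p = 0.0486). The lower one was Ephb2, at 44141 bases from the C1q cluster (log2 fold change -1.17, SE 0.25, edgeR adjusted p = 0.0275). C2, the gene next to Cfb, stood at a mean of 0.912 CPM in MN1pQdel, 1.04 CPM in MN1 and 1.19 CPM in noTD and did not pass (edgeR adjusted p = 0.628).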
